A study of Mus musculus with 2 samples.

Results

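The genes described here are 10 transcription factors of mesenchyme and of epithelial-mesenchymal transition (EMT), the change in which epithelial cells lose their junctions and take on mesenchymal traits. They are Prrx1, Prrx2, Osr1, Twist1, Twist2, Tcf21, Snai1, Snai2, Zeb1 and Zeb2, chosen by gene symbol out of 24646 symbols on the array. Where a symbol stood on several transcript clusters, the cluster with the highest mean signal was used, and this choice arose for 1 of the 10 factors, Zeb2. RNA came from 2 samples of mouse mammary stroma at 10 weeks of age. One had Gli2, a transcription factor of the hedgehog pathway, ablated in the stroma (Gli2∆S), and the other, from control littermates, had intact Gli2 (Gli2WT). In both, dissociated glands were sorted for cells in which Fsp1-Cre had switched the Rosa26 mTmG reporter to GFP, so both carry the Cre driver and the reporter. The Fsp1 (S100a4) promoter that drives the Cre is known to be active in leukocytes as well as in fibroblasts, and the labels do not say whether a sample pools animals. With 1 sample per group there is no replicate error, and no difference below has a test.

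The PRRX proteins are paired-related homeobox factors of limb, craniofacial and dermal mesenchyme, and Osr1 is a zinc finger factor of intermediate mesoderm and fibroblast progenitors. Twist1, Twist2 and Tcf21 are basic helix-loop-helix (bHLH) factors that bind DNA as dimers with the broadly expressed E proteins. The Snail (Snai1, Snai2) and ZEB proteins are zinc finger repressors that bind E-box sequences and are best known for silencing E-cadherin and other junction genes in epithelium. Many of these factors are also part of the ordinary identity of fibroblasts, and ZEB factors act in leukocytes too. Hedgehog signals, which the Gli factors transduce, act on mesenchyme in many organs.

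Prrx1 and Osr1 were the 2 factors at least 2-fold lower in the ablated sample. Each difference is the ablated sample's log2 signal less that of the control, and signals are compared within a gene only, since probes of different genes bind with different strength. Of the 10 factors, 8 were lower and 2 were higher in the ablated sample, against 47.0% of all genes lower. Their median difference was -0.37, while the median over all 24646 genes was 0.0. The 2 factors at least 2-fold lower stand against 0.933% of all genes, and 0 factors were at least 2-fold higher against 0.304%. A signal filter kept genes whose higher signal reached 6.445, the level that splits all genes evenly. It kept 7 of the 10 factors, and Prrx2, Twist2 and Tcf21 stayed below it. The filter is not a measured background level, and without detection calls low signals cannot be told from background. Among the 7 kept, 5 were lower and 2 higher (median -0.41), against 44.8% lower and a median of 0.02 over the 12323 genes kept. At least 2-fold lower were 2 of the 7, against 1.73% of the genes kept, and at least 2-fold higher were 0 of the 7, against 0.373%. A filter on the higher signal favours genes that are high in 1 sample. Fibroblast markers were lower in the same sample (median -1.39), and in sorted bulk samples fewer cells of a type cannot be told apart from less RNA per cell.

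**Figure D1:**
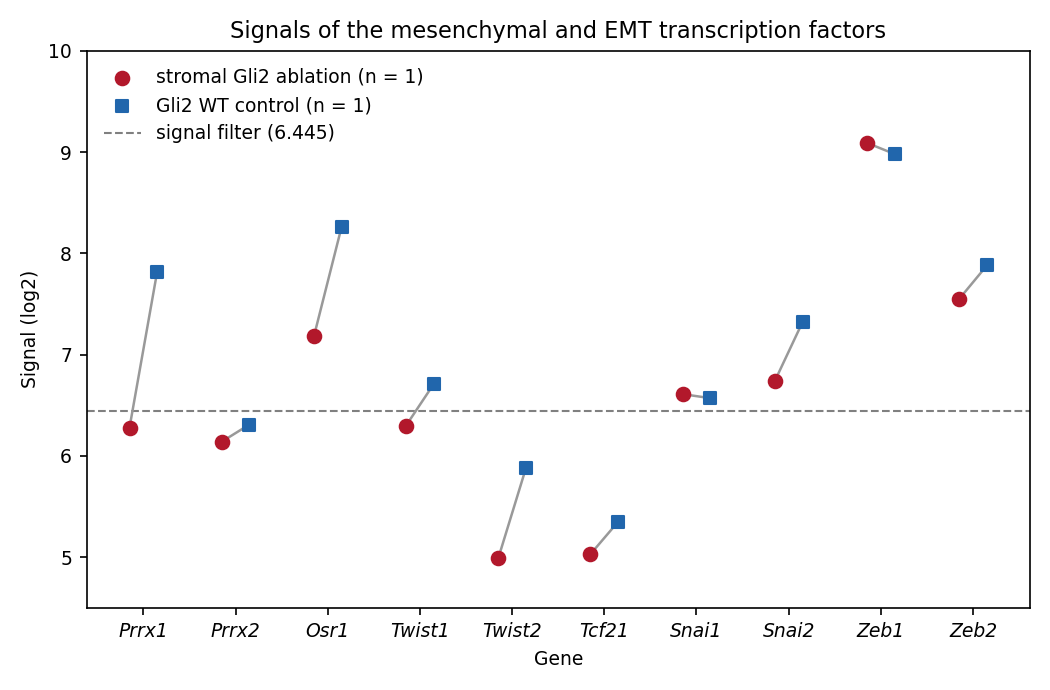
Log2 signal of each of the 10 transcription factors (x axis) in the stromal Gli2 ablation sample (red circles) and the Gli2 WT control sample (blue squares), 1 sample each, with a line joining the samples of a gene and a dashed line at the signal filter of 6.445. The longest downward gaps towards the ablated sample are those of Prrx1 (6.28 against 7.82) and Osr1 (7.18 against 8.26), and the points of Snai1 and Zeb1 lie almost level.

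Prrx1 had a signal of 6.28 in the ablated sample and 7.82 in the control sample, a difference of -1.54, or 2.91-fold lower. The ablated signal lay below the filter, so that the size of the difference is uncertain. Among the 2140 genes within 0.25 of its mean signal, the middle 95% spanned -0.83 to 0.46, and Prrx1 lay outside it. Its paralogue Prrx2 had 6.14 in the ablated sample and 6.31 in the control sample, a difference of -0.17, with both signals under the filter. The differences of the 2 paralogues lay -1.37 apart (Prrx1 minus Prrx2), and with Prrx2 at a level not shown to exceed background this gap says nothing about Prrx2 itself.

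The stretch before the Prrx1 start site is shown because Prrx1 had the lowest difference of the 10 factors. It covers 250 bases before an annotated start (RefSeq, GRCm38.p6, chr1:163313651-163313900, minus strand), which lies inside the annotated span of the gene, and capitals mark TAATTA, a core that paired-type homeodomains are known to bind.
Prrx1: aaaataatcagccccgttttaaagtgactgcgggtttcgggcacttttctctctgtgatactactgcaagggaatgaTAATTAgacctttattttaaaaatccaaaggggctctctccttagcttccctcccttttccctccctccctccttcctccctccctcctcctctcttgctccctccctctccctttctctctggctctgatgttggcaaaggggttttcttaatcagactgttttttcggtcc
TAATTA, searched on both strands, was present in 4.84% of 32851 windows of this length before RefSeq gene starts. The match describes letters only and is not a shown binding site.

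Osr1 had a signal of 7.18 in the ablated sample and 8.26 in the control sample, a difference of -1.08, or 2.11-fold lower. Both signals passed the filter. The middle 95% of the 1865 genes of like mean signal ran from -0.95 to 0.47, so Osr1 lay just outside it. Its relative Osr2, also an odd-skipped zinc finger factor, stayed below the filter at 5.99 in the ablated sample and 5.84 in the control sample.

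Of the 3 bHLH factors, Twist1 was the one that passed the filter. Twist2, a factor of dermal and bone-forming mesenchyme also called Dermo1, had 4.99 in the ablated sample and 5.88 in the control sample, a difference of -0.89. Both signals were below the filter, so that this difference is not one between levels shown to exceed background, although it lay outside the middle 95% of the 2939 genes of like signal (-0.55 to 0.54). Twist1, an inducer of EMT in epithelium and a factor of cranial and limb mesenchyme, had 6.30 in the ablated sample and 6.71 in the control sample, a difference of -0.41 with the ablated signal below the filter. That lies within the range of genes of like signal (-0.72 to 0.48). Tcf21, a factor of visceral mesenchyme and fibroblasts, had 5.03 in the ablated sample and 5.35 in the control sample, a difference of -0.32 with both signals under the filter.

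The Snail pair gave unlike values. Snai2 (Slug), which mammary basal cells and mesenchyme are known to express, had 6.74 in the ablated sample and 7.32 in the control sample, a difference of -0.58, or 1.49-fold lower. Snai1 had 6.61 in the ablated sample and 6.57 in the control sample, a difference of 0.04. The differences of Snai2 and Snai1 lay -0.62 apart, and both were inside the middle 95% of genes of like signal, which ran from -0.83 to 0.46 for Snai2 and from -0.73 to 0.47 for Snai1. Snai3, the third Snail gene, had 6.87 in the ablated sample and 6.72 in the control sample.

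The differences of the ZEB pair lay -0.44 apart (Zeb2 minus Zeb1). Zeb2 had 7.55 in the ablated sample and 7.88 in the control sample, a difference of -0.33. Zeb1 had 9.09 in the ablated sample and 8.98 in the control sample, a difference of 0.11, the highest of the 10 factors. Both differences lie inside the range of genes of like signal, from -0.95 to 0.47 for Zeb2 and from -0.82 to 0.48 for Zeb1. A second cluster with the symbol Zeb2 had 5.05 in the ablated sample and 5.72 in the control sample, a difference of -0.67 below the filter. The files annotate that cluster also with a predicted gene that the RefSeq table lists as Zeb2os, a long non-coding RNA lying inside the Zeb2 gene, and the main Zeb2 cluster also with a microRNA. Which transcript each cluster reports is therefore uncertain. With both clusters averaged the difference was -0.50, a value that may not describe Zeb2 transcripts alone.

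**Figure D2:**
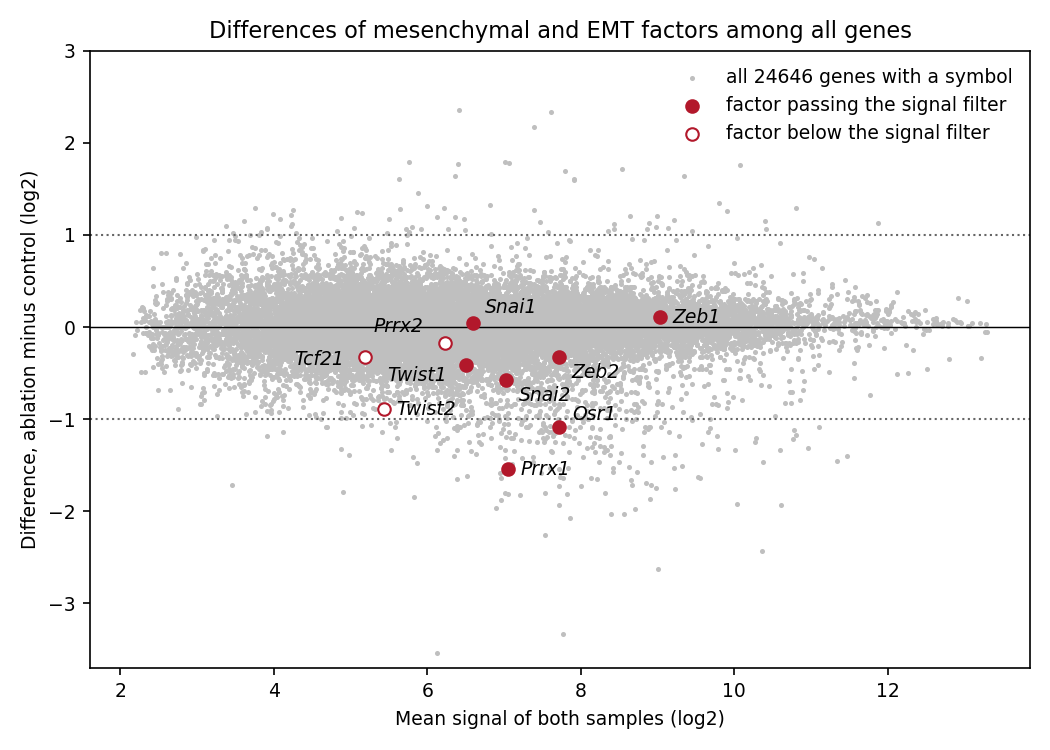
Difference in log2 signal, ablation minus control (y axis), against the mean log2 signal of both samples (x axis) for all 24646 genes with a symbol (grey) and the 10 factors (red, open where below the signal filter), with dotted lines at 2-fold. Prrx1 (-1.54) and Osr1 (-1.08) lie below the lower dotted line, Snai1 and Zeb1 lie just above 0, and 1 grey gene lies outside the plotted range.

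The microRNAs of the miR-200 family, known to repress Zeb1 and Zeb2 in epithelium, are shown as mature sequences (RefSeq, GRCm38.p6), with the seed, bases 2 to 8, in capitals. The first 2 share the seed AACACUG and the other 3 share AAUACUG.
miR-200a-3p: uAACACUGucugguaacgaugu
miR-141-3p: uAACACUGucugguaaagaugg
miR-200b-3p: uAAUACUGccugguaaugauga
miR-200c-3p: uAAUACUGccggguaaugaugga
miR-429-3p: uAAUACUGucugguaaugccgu
The array holds 1 cluster named for each of these genes, and all 5 stayed below the filter in both samples. In the group with the seed AACACUG, Mir200a had 5.47 in the ablated sample and 5.53 in the control sample, and Mir141 had 3.80 in the ablated sample and 3.73 in the control sample. In the group with AAUACUG the differences were 0.04 for Mir200b, 0.25 for Mir200c and 0.11 for Mir429. The clusters do not report mature arms, and no level of the mature microRNAs was measured.

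Of the 10 factors, 7 had windows before a start site in the RefSeq table (10 windows, 4 of them of Zeb2), which leaves Osr1, Snai2 and Zeb1. CACCTG, the E-box form that Snail and ZEB proteins bind, was searched on both strands and found in the window of 1 factor, Snai1, and in 17.2% of all windows. This match, too, describes letters only and is not a shown binding site. The Snai1 window is shown because it holds the match (250 bases before the start, GRCm38.p6, chr2:167537945-167538194, plus strand, capitals mark CACCTG).
Snai1: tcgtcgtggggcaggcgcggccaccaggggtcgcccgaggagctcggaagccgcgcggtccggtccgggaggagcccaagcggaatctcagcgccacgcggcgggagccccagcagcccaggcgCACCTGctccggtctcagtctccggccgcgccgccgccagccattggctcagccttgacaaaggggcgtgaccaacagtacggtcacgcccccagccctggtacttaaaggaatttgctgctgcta
The wider E-box CANNTG, which includes CACCTG, was found in that same window and in 0 of the windows of the other 6 factors, against 66.2% of all windows. GACCACCCA, the sequence that Gli factors bind, was found in 0 of the 10 windows and in 0.225% of all windows, both strands searched. Sequence outside these windows was not searched.

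Relatives by DNA-binding domain mostly had low signals. Of 18 relatives (odd-skipped, Snail and Scratch, Twist-group and Prrx-related genes), 17 stayed below the filter, and Snai3 was the one that passed. Over all 18, 8 were lower in the ablated sample, against 47.0% of all genes, and 8 were higher, with a median difference of 0.0.

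Other transcription factors known in mesenchyme and fibroblasts included 1 gene, Aebp1, with a difference as low as that of Prrx1. The filter kept 24 of 47, and 19 were lower and 5 higher, with a median of -0.37, against 44.8% lower over the genes kept. At least 2-fold lower were 2 of the 24, against 1.73% of the genes kept. Aebp1, whose gene also encodes the secreted matrix protein ACLP, had 7.95 in the ablated sample and 9.52 in the control sample (-1.57). Creb3l1, a membrane-bound factor that drives collagen secretion, had 6.52 in the ablated sample and 7.94 in the control sample (-1.42). Tbx15, a T-box factor of dermal and adipose mesenchyme, followed with a difference of -0.59 and an ablated signal below the filter. Over all 47, 30 were lower and 17 higher (median -0.13), against 47.0% of all genes lower.

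The E proteins are the dimer partners of the bHLH factors, and the Id proteins hold E proteins in inactive dimers. Of these genes 6 of 7 passed the filter, 4 lower and 2 higher, against 44.8% lower over the genes kept (median -0.26). At 2-fold there were 0 of the 6, against 1.73% of the genes kept lower and 0.373% higher. The E protein Tcf4 had 8.27 in the ablated sample and 8.82 in the control sample (-0.55), and Id3 had 7.43 in the ablated sample and 7.98 in the control sample (-0.55). Id1 had a difference of -0.28. Corepressors that work with Snail and ZEB proteins lay near 0 (median -0.08), with 9 of 12 lower, against the same 44.8%, and 3 higher. At 2-fold there were 0 of the 12, against the same 1.73% lower and 0.373% higher. The histone deacetylase Hdac1 (-0.30), the ZEB corepressor Ctbp2 (-0.27) and the scaffold Sin3a (0.24) lay farthest out.

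Ligands, receptors and other genes of pathways known to induce the EMT factors had 12 of 18 lower (median -0.12), against 44.8% of the genes kept. Of the rest, 5 were higher and 1 was equal. At 2-fold there were 0 of the 18, against 1.73% of the genes kept at least 2-fold lower. The hypoxia factor Epas1 (-0.60), the TGF-beta co-receptor Tgfbr3 (-0.45) and the Notch ligand Jag1 (-0.43) had the largest differences. The TGF-beta ligands, named after their values were seen, had differences of -0.42 for Tgfb2, -0.40 for Tgfb3 and -0.12 for Tgfb1.

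Genes of the epithelial and of the mesenchymal side of EMT gave unlike values. Of 24 epithelial junction and keratin genes, 19 passed the filter, 12 lower, against 44.8% of the genes kept, and 7 higher (median -0.09). At 2-fold there were 0 of the 19, against 1.73% of the genes kept lower and 0.373% higher. The plakophilin Pkp1 (-0.46), the claudin Cldn3 (-0.45) and plakoglobin Jup (-0.40) had the largest differences, and E-cadherin, Cdh1, had 8.78 in the ablated sample and 9.15 in the control sample (-0.37). Of 18 epithelial regulators that oppose EMT, 4 passed (median -0.16), with Klf5 at -0.40, Elf3 at -0.17 and Ovol2 at -0.16. All 4 were lower, against the same 44.8%, and 0 were at least 2-fold lower, against 1.73% of the genes kept. Mesenchymal genes used as EMT markers were lower throughout. Of 24 listed, 23 passed, all 23 lower, against 44.8% of the genes kept (median -1.26). At least 2-fold lower were 15 of the 23, against 1.73% of the genes kept.

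Those 15 included the receptor Pdgfrb, with 6.91 in the ablated sample and 8.72 in the control sample (-1.81). Tenascin C, Tnc, a matrix protein known as a target of Prrx1, had 7.35 in the ablated sample and 8.61 in the control sample (-1.26). The fibronectin receptor chain Itga5 had a difference of -1.11. Also among them were Col1a1, Col1a2, Fbn1, Lox, Mmp2, Fstl1, Postn, Lum, Sparc, Col3a1 and Cyr61, from -1.87 for Col1a1 to -1.09 for Cyr61. Vimentin, Vim, and N-cadherin, Cdh2, the classical markers, named after their values were seen, had differences of -0.25 and -0.30.

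**Figure D3:**
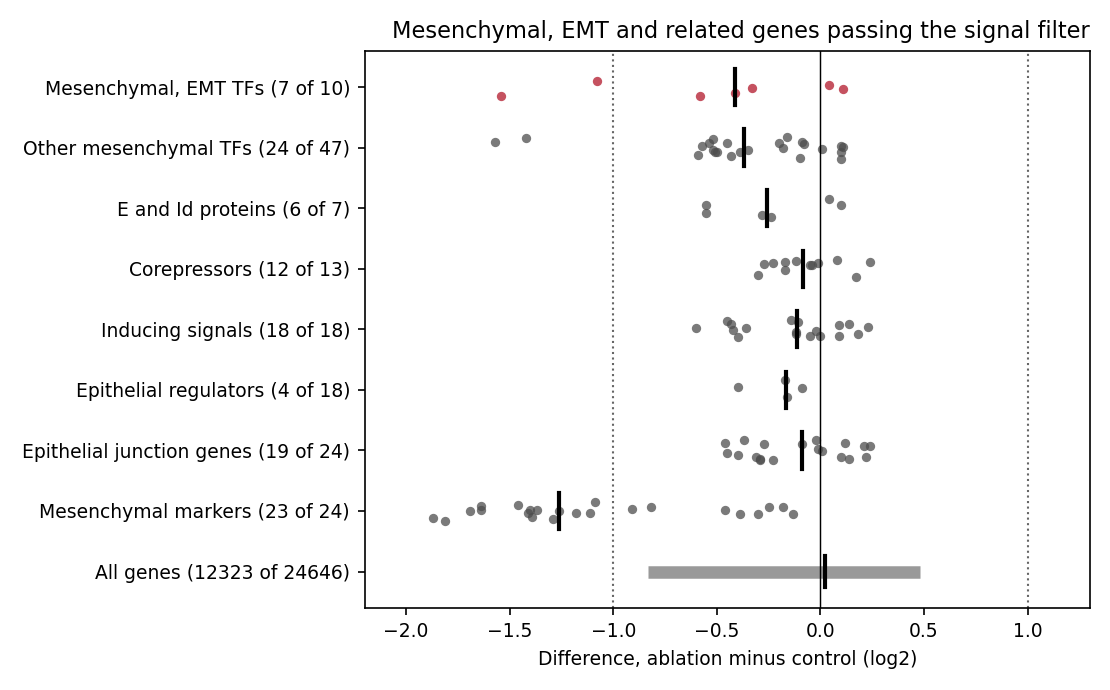
Difference in log2 signal, ablation minus control (x axis), of each gene passing the signal filter in 8 lists (rows, with the number passing of the number found), with black ticks at the medians of lists with at least 3 such genes and dotted lines at 2-fold. The bottom bar spans the middle 95% of all 12323 genes kept (-0.83 to 0.48), and the medians are -0.41 for the factors and -1.26 for the mesenchymal markers.

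The genes whose pair of signals lay nearest to those of Prrx1 and Osr1, by Euclidean distance over the 2 samples, were also listed, as a description. For Prrx1 they were the guidance cue Slit2 (distance 0.085), the proteoglycan podocan, Podn (0.102), and the WNT antagonist Sfrp2 (0.144), all 3 with ablated signals below the filter, as for Prrx1. Slit2 had 6.36 in the ablated sample and 7.85 in the control sample. For Osr1 they were the laminin chain Lamb2 (0.058), the creatine synthesis enzyme Gatm (0.063) and the lysyl oxidase-like enzyme Loxl2 (0.064). Lamb2 had 7.23 in the ablated sample and 8.29 in the control sample.

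Markers of several cell types also differed between the samples. All 11 fibroblast markers passed the filter and were lower in the ablated sample, against 44.8% of the genes kept. The median difference was -1.39, and 9 of the 11 were at least 2-fold lower, against 1.73% of the genes kept. At 3-fold the count was 4. Their signals ran from 6.91 to 12.01 in the ablated sample and from 7.77 to 12.51 in the control sample. Pdgfra had 7.71 in the ablated sample and 9.69 in the control sample. Col1a1, Pdgfrb, Col1a2, Lum and Col3a1 stand on both this list and that of the mesenchymal markers, and the other 4 at 2-fold were Pdgfra, Mfap5 (-1.53), Dpt (-1.08) and Pi16 (-1.08).

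T and NK cell markers went the other way, with 10 of 11 higher in the ablated sample (median 0.20, against 0.02 over the genes kept). Lower was 1 of the 11, against 44.8% of the genes kept. At least 2-fold higher were 0 of the 11, against 0.373% of the genes kept. Their signals ran from 7.24 to 11.43 in the ablated sample and from 7.23 to 11.09 in the control sample. The receptors Klrk1 (0.96) and Ncr1 (0.72) and the chain Cd8b1 (0.46) led them. The T cell receptor subunit Cd3e had 11.43 in the ablated sample and 11.09 in the control sample. The B cell marker Cd79a had 11.53 in the ablated sample and 11.51 in the control sample, and the epithelial marker Epcam had 9.25 in the ablated sample and 9.52 in the control sample. The sorted cells carried signals of lymphocyte and epithelial genes above the filter beside those of fibroblast genes. The part of these shifts in the differences of Prrx1, Osr1 and the other factors was not tested.

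Of the other marker lists, all 7 endothelial markers kept were lower (median -0.60, Cdh5 -0.85, Kdr -0.64), against 44.8% of the genes kept. Under a stricter filter at the 75th percentile the endothelial median was -0.36. All 7 pericyte and smooth muscle markers kept were lower (median -0.34, Acta2 -0.46, Cspg4 -0.41), against the same 44.8%. So were all 5 mast cell markers kept (median -0.59, Tpsb2 -0.95, Cpa3 -0.70, Mcpt4 -0.59). The endothelial Cldn5 and the pericyte gene Rgs5 stood right at the 2-fold line. Macrophage markers had 8 of 9 lower, against the same 44.8% (median -0.32, C1qa -0.59, Fcgr1 -0.53, Cd68 -0.43). Of 6 adipocyte markers, 4 stayed below the filter, Adipoq, Plin1, Lep and Cidec. Both adipocyte markers kept were lower, against the same 44.8%, Car3 by a difference of -1.15 and Fabp4 of -0.79. Luminal markers lay around 0, with 3 of 6 lower, against the same 44.8% (median 0.05, Prlr 0.50, Cdh1 -0.37, Epcam -0.27). Of the luminal markers kept, Epcam, Krt8, Krt18, Krt19 and Cdh1 also stand on the epithelial junction list. B cell markers had 1 of 6 lower, against 44.8% of the genes kept, and 5 higher. Their median of 0.04 lay near the 0.02 of the genes kept (Cd79b -0.21, Pax5 0.16). None of 5 basal epithelial markers passed the filter, Krt5 and Krt14 included. Of the genes named from the lists, Ctbp2, Pkp1, Elf3, Cdh2 and Cldn5 passed through the control sample, with ablated signals below the filter.

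**Figure D4:**
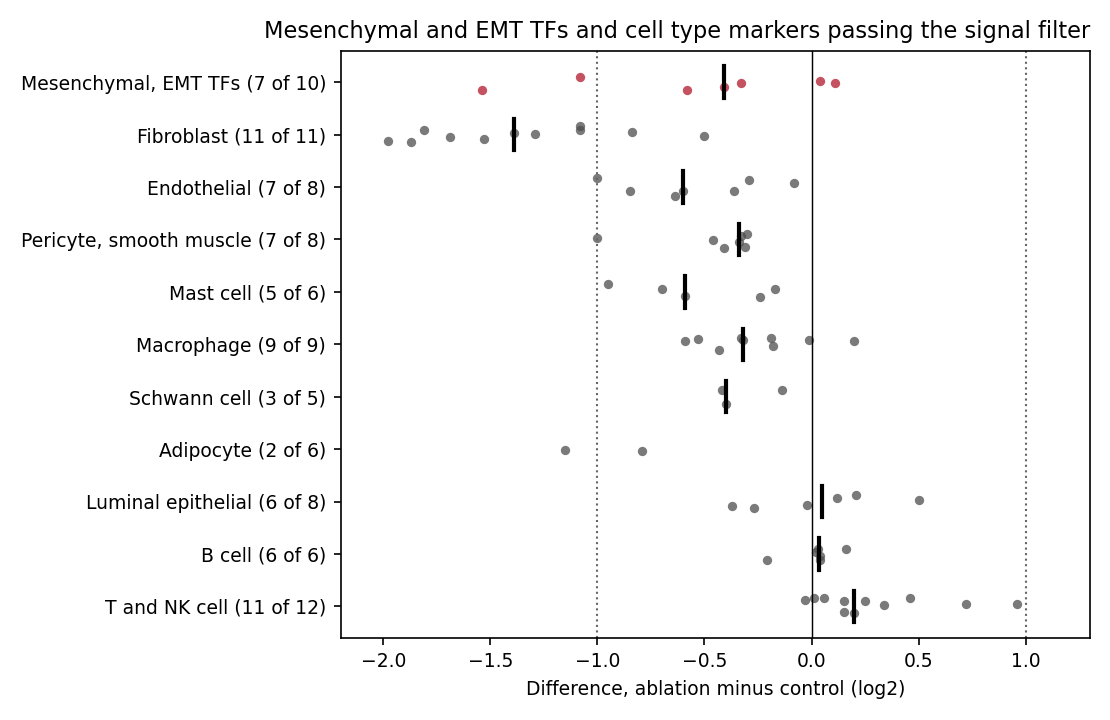
Difference in log2 signal, ablation minus control (x axis), of the 7 factors passing the signal filter (red) and of cell type markers passing it (grey), by list (rows, with the number passing of the number found), with black ticks at the medians of lists with at least 3 such genes and dotted lines at 2-fold. Fibroblast markers have a median of -1.39 against -0.41 for the factors, and 10 of the 11 T and NK cell markers lie right of 0.

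Gli2, the ablated gene, was below the filter, and its 2 deposited values differ. In the authors' deposited comparison table it had 5.32 in the ablated sample and 5.94 in the control sample (-0.62), and in the series' values 5.72 in the ablated sample and 5.94 in the control sample (-0.22). Where the Gli2 probes lie relative to the deleted part is not stated in the labels or files, so these signals do not check the genotype labels. For all 10 factors both sources gave the same signals after rounding.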

How the data were processed

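RNA of 2 samples was measured on Affymetrix arrays after extraction with Trizol and an RNeasy column, per the labels' protocols. The authors deposited, per the file headers, a log2 signal (bi-weight average) per transcript cluster, and a signed linear fold of control over ablated, handled here as a score. The submitters' processing notes name Transcriptome Analysis Console. How background was corrected and signals were normalized, and the genome build, are not stated in the labels or file headers, and a shift shared by all genes could have been scaled away. A series value table repeats the log2 signals, as deposited, with more decimals.

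Of 41345 clusters with values, 27036 had a symbol. Per symbol the cluster with the highest mean signal was kept, and listed genes were counted at 2-fold. The factors, the lists of genes and the rule for named genes (in each list up to 3 genes with the largest differences and all at 2-fold, among those passing the filter) were chosen with earlier results of these data known. Of 264 list entries, 2 were matched by a synonym in the RefSeq table (GRCm38.p6). No test across samples is possible with 1 sample per group, and precision is limited by the number of arrays. Values of some listed genes are left out. The choice of 1 cluster per symbol, the filter and the 2-fold cut were also run on simulated data, with differences added to bright genes. The other steps were not. Alternatives were other row choices, scalings (loess over a span of 0.3, quantile, zero median), sources, folds and filters. The tools were pandas 2.3.3, matplotlib 3.10.9, numpy 2.4.6 and statsmodels 0.14.6, under Python 3.11.15.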

Additional observations from a re-analysis of the deposited data

How the results depend on the processing

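Over the row choices, scalings and sources tried, the 10 factors kept their direction. Of 70 alternative values, 69 moved from the reported difference by less than the spread of genes of like signal. Prrx1 ran from -1.56 to -1.54 and Osr1 from -1.12 to -1.08. Zeb2 was at -0.67 where the cluster with the largest difference was used, the one also annotated with a predicted gene. The count of 2 factors at least 2-fold lower became 0 at 3-fold and 1 under a stricter filter at the 75th percentile (7.87), which Prrx1 does not reach. At 3-fold the mesenchymal markers counted 5 and the other mesenchymal transcription factors 0, and at 1.5-fold 1 gene of the inducing pathways was counted. The median of the other mesenchymal transcription factors was -0.13 without the filter and -0.18 under the stricter one, where the endothelial median was -0.36, and at 3-fold 4 fibroblast markers were counted. No paired analysis was possible because each group has 1 sample, and for the same reason no sample could be left out. Low signals cannot be told from background without detection calls.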

Other observations

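Of the other mesenchymal transcription factors that passed the signal filter, 5 were higher in the ablated sample, and they are named here after their values were seen. They were Foxp1 (0.11), Runx1 (0.10), Pbx3 (0.10), Heyl (0.10) and Ebf1 (0.01). Each of these is smaller than the spread over all genes kept, a scaled median absolute deviation of 0.21. Foxp1, Runx1 and Ebf1 are also known as factors of lymphocyte development, and a part of lymphocytes in their differences was not tested. Foxp1 had 10.90 in the ablated sample and 10.79 in the control sample, Runx1 9.92 in the ablated sample and 9.82 in the control sample, and Ebf1 10.32 in the ablated sample and 10.31 in the control sample.

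The authors' deposited comparison table and the series value table were set against each other, cluster by cluster. In 41343 clusters both signals were equal within rounding (a tolerance of 0.0051), and in 2 clusters they were not. The clusters were those of Gli2, the ablated gene, and Bmp7, a bone morphogenetic protein that the study's design names. For Gli2 the ablated signal was 5.32 in the comparison table and 5.72 in the value table, with an equal control signal of 5.94. For Bmp7 the ablated signal was 7.14 in the comparison table and 7.56 in the value table, and the control signal was 7.79 in the comparison table and 7.90 in the value table. The difference of Bmp7 was -0.65 in the comparison table and -0.35 in the value table. The reason for this was not tested.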
